A study of Mus musculus with 15 samples.

Results

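Sclerostin (Sost), its close relative Sostdc1 and the low-density lipoprotein receptor-related proteins Lrp4, Lrp5 and Lrp6 were followed in the developing mouse secondary palate. The 5 genes were chosen by name, and all 5 were found among the 54232 genes of the deposited count table. The libraries came from bulk RNA sequencing of dissected palates of wild-type (WT) mice at 5 stages, the embryonic days E13.5, E14.5, E15.5 and E16.5 followed by P0, which is labelled as postnatal, with no treatment named. Each of the 5 stages had 3 libraries, and each library pooled the palates of 3 embryos, so replicate error here is the variation from pool to pool. The series names sclerostin as a Wnt antagonist of interest in cleft palate, so its course in the normal palate is the question asked of these libraries. Sex and litters of the pooled embryos are not given in the labels, and the mutant embryos and drug delivery that the aims of the series mention were not analysed here.

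Levels below are in CPM, the counts of a gene set against the total of its library after TMM (trimmed mean of M values) adjusted that total. Totals ran from 21.5 to 69.0 M counts and were lowest at P0 (21.5 to 41.2 M) and E16.5 (37.1 to 52.3 M). The floor of detection, set at 3 counts, lay at 0.0435 to 0.140 CPM, depending on the library, and covers counting error only. Markers of other tissues moved with stage: the summed level of 10 osteoblast genes was 1053 to 2235 CPM at E13.5 and E14.5 and 14202 to 35209 CPM from E15.5 on, and that of 7 skeletal muscle genes was 217 to 1044 CPM in the same early libraries and 11660 to 35048 CPM at E16.5. Transcripts of choroid plexus, a tissue outside the palate, stood apart in E14.5 replicates 1 and 3. There 10 marker genes summed to 1454 and 803 CPM against 36.7 CPM in replicate 2. At least 8 of the 10 passed 3 counts in every library. P0 replicates 2 and 3 also stood high, at 519 and 282 CPM, and no other library passed 149 CPM. Counts of 4 Y-linked genes were 7 to 12 in all 3 E16.5 libraries and 15 to 28 in E13.5 replicate 1, E15.5 replicate 1 and P0 replicate 2, against at least 2976 elsewhere. The part of depth, sex or other tissues in the differences below was not tested.

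As background, canonical Wnt signalling begins when a Wnt protein brings a Frizzled receptor together with Lrp5 or Lrp6, whose phosphorylated tails then hold Axin and let beta-catenin build up. Sclerostin is a secreted cystine-knot protein made mainly by osteocytes, the cells embedded in bone, and it binds the first propeller of Lrp5 and Lrp6 and lowers Wnt signalling. Sostdc1, also called wise or ectodin, binds the same co-receptors and bone morphogenetic proteins and is known from tooth and hair placodes. Lrp4 anchors sclerostin in bone and is also the agrin receptor of the neuromuscular junction.

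The sequences below show how the ligands and the co-receptors are related, since the count of one copy could otherwise be taken from another. In both ligands an asparagine, any residue and an isoleucine (the NXI motif) lie in a loop through which they hold Lrp5 and Lrp6. Capitals mark the bases that are identical within each pair, written 5′ to 3′ on the coding strand from GENCODE M21 transcripts. Positions count from 1 at the first base of the coding sequence.
Sost, coding bases 293 to 352: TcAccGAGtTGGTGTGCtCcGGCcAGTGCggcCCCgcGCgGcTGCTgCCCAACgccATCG
Sostdc1, coding bases 284 to 343: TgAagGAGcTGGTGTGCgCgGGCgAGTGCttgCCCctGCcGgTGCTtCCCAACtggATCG
Lrp5, coding bases 1984 to 2043: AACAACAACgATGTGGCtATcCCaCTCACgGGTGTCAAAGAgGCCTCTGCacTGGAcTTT
Lrp6, coding bases 1948 to 2007: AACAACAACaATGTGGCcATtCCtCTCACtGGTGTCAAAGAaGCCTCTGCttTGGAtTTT

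These were the most alike stretches of 60 bases in each pair, with 42 identical bases (70.0%) between Sost and Sostdc1 and 51 (85.0%) between Lrp5 and Lrp6. The ligand stretches end on the codons of the NXI motif, at coding bases 343 to 351 of Sost and 334 to 342 of Sostdc1. Over the whole alignment 62.5% of 592 aligned bases were identical for the ligands and 68.3% of 4782 for Lrp5 and Lrp6. The longest run shared letter for letter was 14 bases in the ligand pair, 22 bases in Lrp5 and Lrp6, and 29 bases in Lrp4 and Lrp5. No pair of the 5 genes shared any run of 50 coding bases, and no other annotated gene overlapped a member's exons.

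On GRCm38, Sost (ENSMUSG00000001494.6) lies on the minus strand of chromosome 11 at 101962458 to 101967015, with 2 exon blocks. Sostdc1 (ENSMUSG00000036169.6) lies on the plus strand of chromosome 12 at 36314139 to 36318452, also with 2 exon blocks. Lrp4 (ENSMUSG00000027253.15) lies on the plus strand of chromosome 2 at 91457511 to 91513779, with 35 exon blocks. Lrp5 (ENSMUSG00000024913.16) lies on the minus strand of chromosome 19 at 3584828 to 3686564, with 23 exon blocks, and Lrp6 (ENSMUSG00000030201.15) on the minus strand of chromosome 6 at 134446476 to 134566965, with 22. All 5 are protein-coding, and the counts are of reads in their exons.

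The 250 bases before the start of Sost, the member whose level changed most, are shown as RefSeq gives them for GRCm38.p6, at chr11:101967016-101967265 on the minus strand. Capitals mark the only match to the E-box CANNTG, a motif of basic helix-loop-helix factors that reads the same on both strands, and it starts 213 bases before the start.
Sost promoter: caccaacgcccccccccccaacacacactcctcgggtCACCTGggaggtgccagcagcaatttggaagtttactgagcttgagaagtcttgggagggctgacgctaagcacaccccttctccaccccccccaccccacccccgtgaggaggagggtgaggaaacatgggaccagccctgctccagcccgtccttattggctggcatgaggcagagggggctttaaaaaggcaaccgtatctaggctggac
An E-box was found in 66.2% of 32851 promoter windows of the same length. On either strand this window held no TGTGGT (the Runx core, in 14% of windows), no GGGCGG (a GC box, 32.7%), no CTTTGA (a TCF/LEF core, 13.8%) and no TATAAA (12.4%). Its GC content was 61.2%, against a median of 52.4% over all windows. The table used holds this promoter for 1 of the 5 members.

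Compared per kilobase of exon, the 5 transcripts differed widely in level. Lrp5 and Lrp6 stood at similar levels at E13.5, 12.5 ± 2.90 and 12.9 ± 2.09 CPM per kilobase (SD, n = 3), and Lrp4 at 6.46 ± 0.234. Sostdc1 stood at 12.5 ± 6.04 CPM per kilobase at E13.5 and at 38.7 ± 22.7 at E16.5, the highest stage mean of any of the 5 genes. Sost was the lowest at every stage, with 0.204 ± 0.122 CPM per kilobase at E13.5 and 1.87 ± 0.203 at E16.5. Per length, Sostdc1 therefore exceeded Sost by 6.46-fold to 148-fold in single libraries, with the smallest ratio in E16.5 replicate 1 and the largest in P0 replicate 3. The levels of all 5 genes in each library are plotted by stage.

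**Figure D1:**
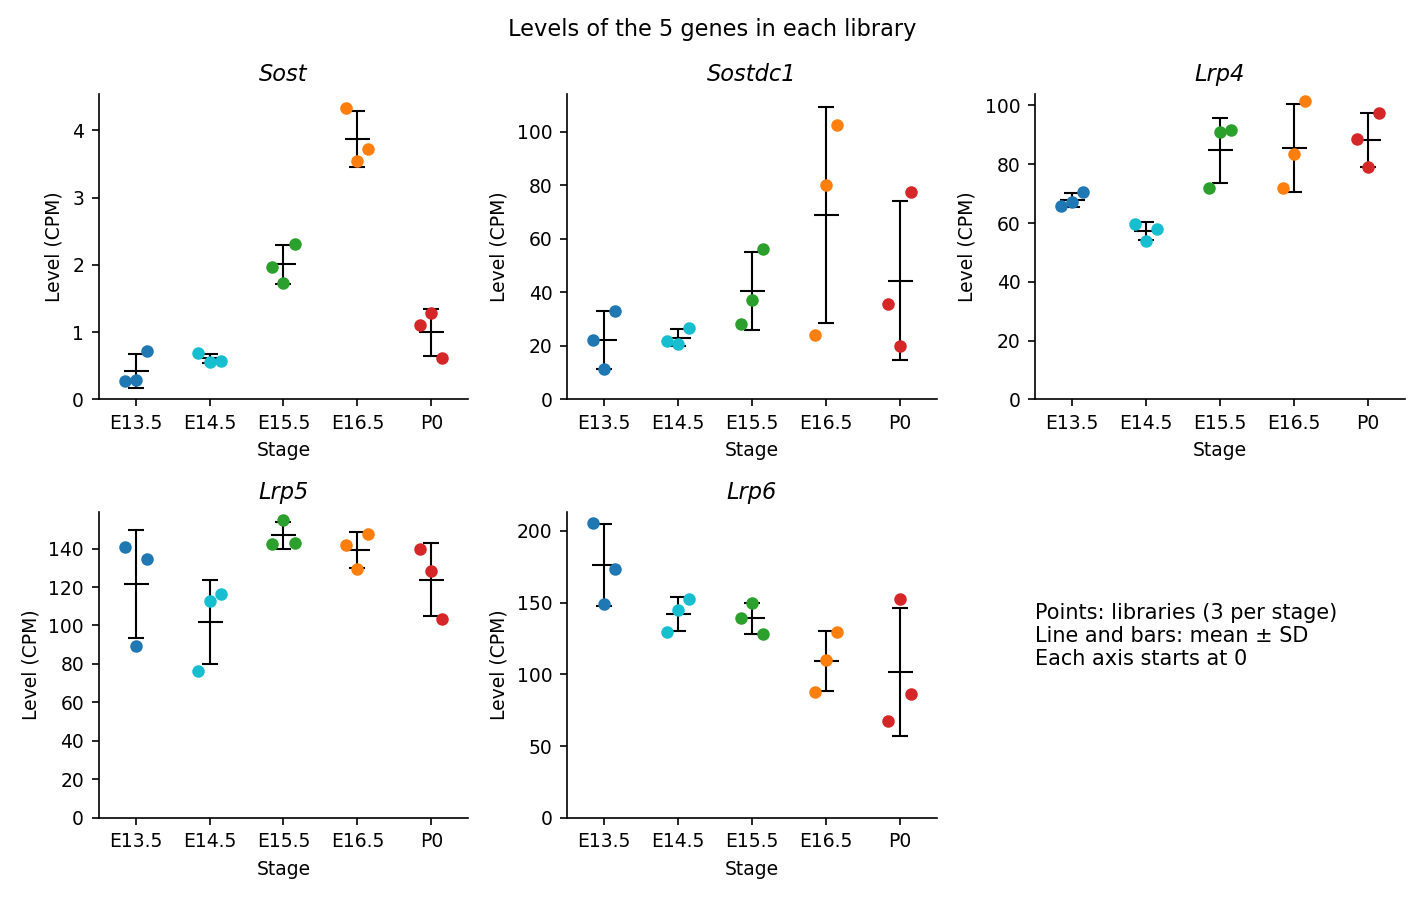
Levels in CPM (vertical axes, each from 0) of Sost, Sostdc1, Lrp4, Lrp5 and Lrp6 at 5 stages (horizontal axes), with 1 point per library and the mean ± SD of 3 libraries as a line with bars. Sost peaks at E16.5, between 3.54 and 4.34 CPM, while the E16.5 libraries of Sostdc1 are spread from 24.2 to 103 CPM.

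Sost was faint in the early palate, rose by E15.5, was highest at E16.5 and was lower again at P0. At E13.5 its level was 0.272, 0.282 and 0.713 CPM in replicates 1 to 3, from 19, 20 and 48 counts. At E14.5 it was 0.685, 0.560 and 0.576 CPM, from 44, 37 and 41 counts. These early libraries all lay above the floor, and their ranges overlapped.

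At E15.5 Sost stood at 1.97, 1.73 and 2.31 CPM, and at E16.5 at 4.34, 3.54 and 3.72 CPM. Every E16.5 library lay above every E15.5 library, and every E15.5 library above all earlier ones. At P0 the level was 1.11, 1.28 and 0.610 CPM, from 40, 42 and 14 counts, below all E15.5 and E16.5 libraries. The exact Poisson 95% interval of the P0 library with 14 counts was 0.333 to 1.02 CPM, and that of the lowest E16.5 library 2.95 to 4.21 CPM, which cover counting error only.

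In edgeR's quasi-likelihood test, with p-values adjusted by Benjamini-Hochberg over 22151 tested genes, Sost changed across the stages (adjusted p = 6.93e-05) and in 6 of its 10 pairs of stages. From E14.5 to E15.5 it rose 3.30-fold (log2 fold change 1.72 ± 0.362 SE, adjusted p = 0.00612), and from E13.5 to E16.5 it rose 9.13-fold (3.19 ± 0.382, adjusted p = 6.61e-05). The rises from E13.5 to E15.5 (4.73-fold, adjusted p = 0.00149) and from E14.5 to E16.5 (6.35-fold, adjusted p = 0.000241) also passed. P0 was still 2.38-fold above E13.5 (adjusted p = 0.0121), although their libraries overlapped, since E13.5 replicate 3 lay above P0 replicate 3. That call was lost without E13.5 replicate 1 (adjusted p = 0.0552) or replicate 2 (0.0541) and with only the 6 libraries of the comparison (0.0758), and leave-one-out values ran from 0.000731 to 0.0552.

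Between E16.5 and P0 Sost fell 3.83-fold (log2 fold change -1.94 ± 0.366, adjusted p = 0.0484), and the libraries did not overlap. The size held, between -2.22 and -1.70 on the log2 scale over all alternatives, but the call sits at the threshold: it passed in 1 of 15 fits that left out 1 library (adjusted p 0.0172 to 0.177) and in 3 of 9 other settings. With only the 6 libraries of the comparison the adjusted p was 0.717. All 3 E16.5 libraries had almost no Y-linked counts, which among the P0 libraries only replicate 2 shared. The part of sex in the fall was not tested. In the order of its stage levels, E13.5, E14.5, P0, E15.5 and E16.5, no neighbouring stages differed past the threshold, and the closest was P0 against E15.5 (adjusted p = 0.0635). The rise from E15.5 to E16.5, 1.93-fold, had an adjusted p of 0.147. It passed in 1 of 9 other settings, DESeq2 (0.0346), and in 0 of 15 fits that left out 1 library. P0 against E15.5 passed in 2 of 9 other settings, DESeq2 (0.0240) and thinned libraries (0.0209). With E14.5 replicates 1 and 3 left out, the E14.5 libraries rich in choroid plexus transcripts, the log2 fold change of E15.5 against E14.5 was 1.87. That fit has a single E14.5 library left, and the rise did not pass the threshold in it.

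**Figure D2:**
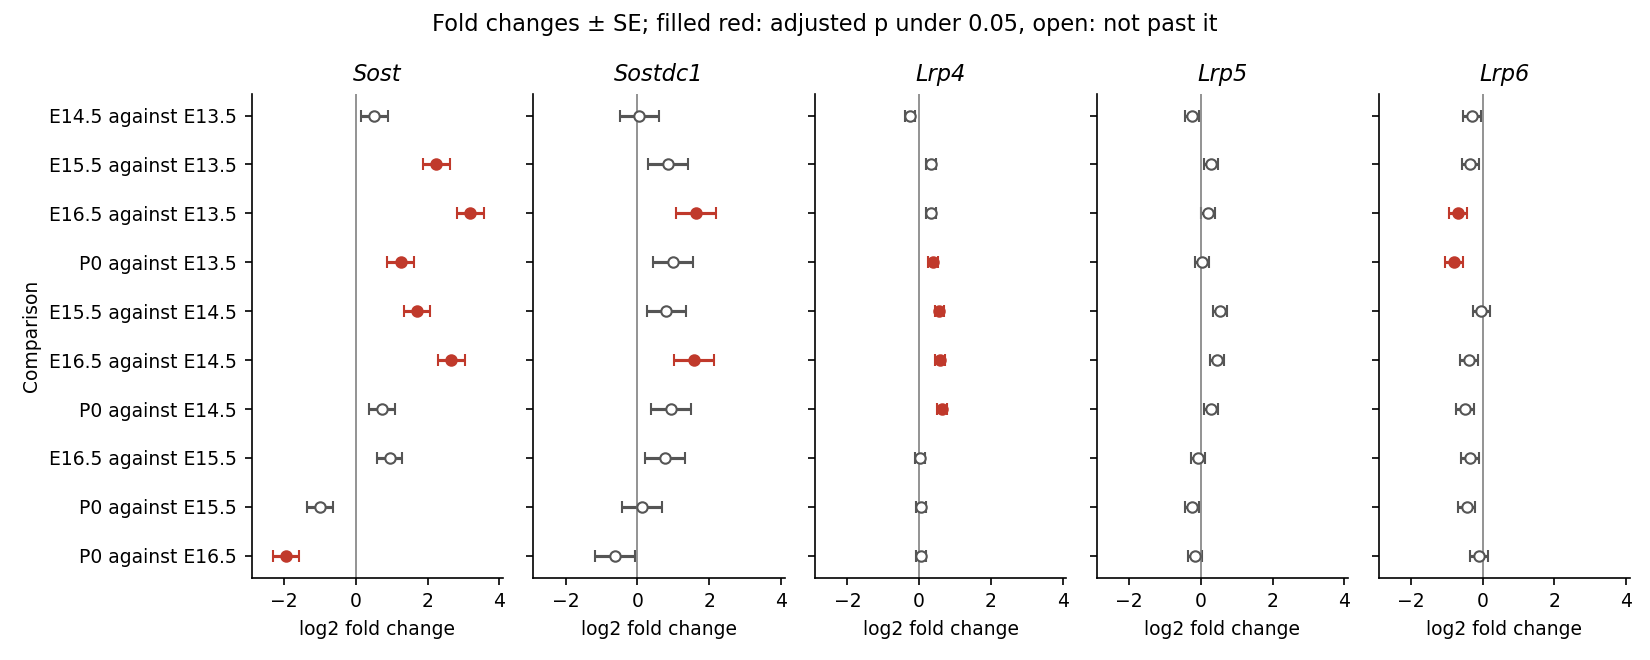
Log2 fold change ± SE (horizontal axes) for the 10 pairs of stages (vertical axis) in each of the 5 genes, with filled red points where the adjusted p was under 0.05. Sost has 6 filled points and the widest range, from -1.94 to 3.19, and Lrp5 has none.

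Other osteocyte genes also rose at E15.5. Of 6 osteocyte markers, 4 rose and none fell from E14.5 to E15.5, where 26.1% of all tested genes passed in either direction. The median log2 fold change of the 6 was 1.73 against 0.03 over all tested genes. In the same step 8 of 10 osteoblast genes and 5 of 7 skeletal muscle genes also rose, with medians of 3.33 and 2.26. Dmp1, a matrix phosphoprotein of osteocytes, rose from 0.989 ± 0.0444 to 45.8 ± 11.5 CPM, and Phex, a membrane endopeptidase that restrains phosphate loss, from 5.74 ± 3.18 to 29.2 ± 7.28 CPM. Mef2c, a transcription factor with a binding site in the Sost bone enhancer, rose 2.16-fold (adjusted p = 0.0272), and Mepe, another matrix protein of mineralizing bone, also rose but stood at only 0.752 ± 0.242 CPM. Pdpn, a membrane glycoprotein of early osteocytes, stood at 45.3 ± 4.73 CPM at E14.5 and 43.3 ± 0.315 CPM at E15.5, and Phex and Mepe were named after their values were seen. From E16.5 to P0, where 0.352% of all tested genes passed, none of the 6 passed the test in edgeR, 1 had an unadjusted p under 0.05, and their median log2 fold change was 0.38. Dmp1 stood at 80.2 ± 37.9 CPM at E16.5 and 119 ± 51.4 at P0, and Phex at 31.9 ± 14.9 and 33.3 ± 4.11.

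Set against these genes within each library, Sost was lowest at P0. For every 1000 Dmp1 counts, E13.5 libraries had 774 ± 517 Sost counts and E14.5 libraries 613 ± 53.0. The numbers were 45.0 ± 9.51 for E15.5, 54.9 ± 21.5 for E16.5 and 9.97 ± 7.09 for P0. The E13.5 and E14.5 ratios rest on few counts of both genes, with 19 to 48 of Sost at E13.5 and 37 to 44 at E14.5. Per 1000 Phex counts, Sost gave 141 ± 68.5 at E16.5 and 31.0 ± 12.9 at P0, and no P0 library (16.1 to 39.3) reached the lowest E16.5 library (76.4). These ratios show unequal change between transcripts. In bulk tissue, fewer cells of a type and less RNA per cell cannot be told apart.

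**Figure D3:**
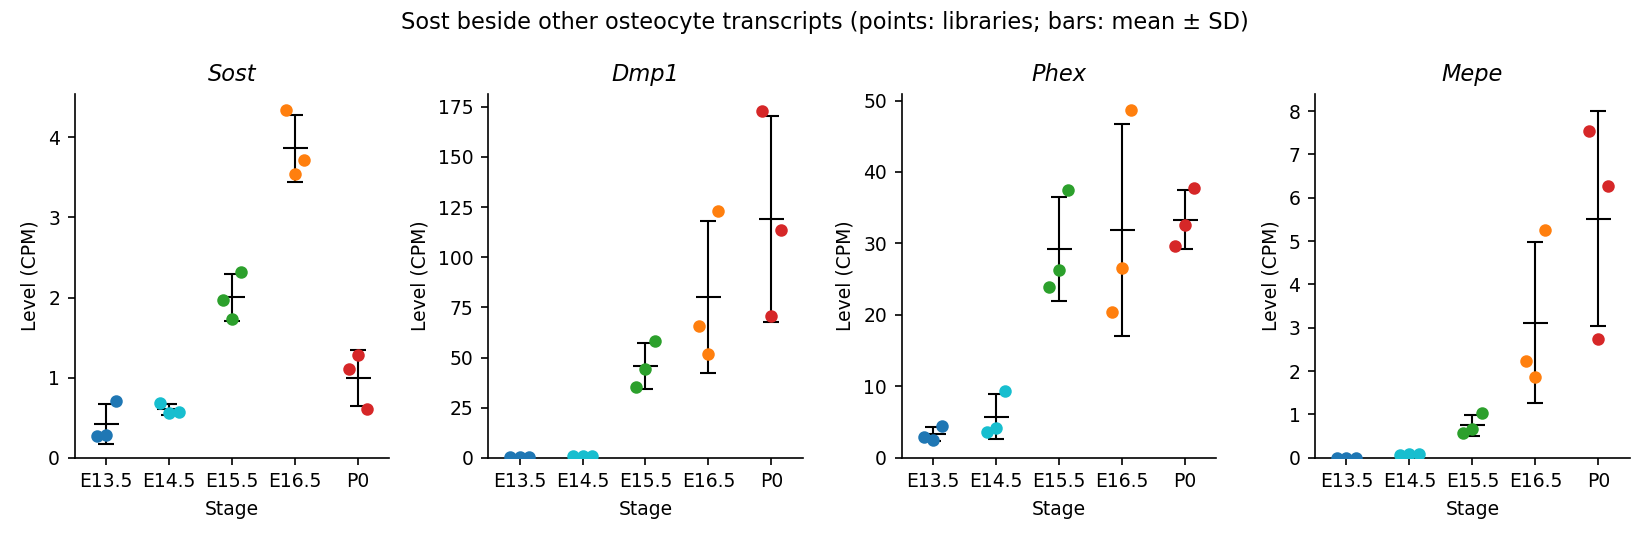
Levels in CPM (vertical axes, each from 0) of Sost, Dmp1, Phex and Mepe at 5 stages, with 1 point per library and the mean ± SD of 3. The P0 libraries of Sost, 0.610 to 1.28 CPM, lie below all E16.5 libraries, whereas those of Dmp1, Phex and Mepe overlap with E16.5.

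Sostdc1 was higher at E16.5 than at E13.5 and E14.5, but its level differed several-fold between pools of 1 stage. At E13.5 it stood at 22.2, 11.5 and 33.0 CPM and at E14.5 at 22.0, 20.7 and 26.6 CPM. At E15.5 it stood at 28.1, 37.0 and 56.4 CPM, every library above those of E14.5. The late stages were scattered: 24.2, 80.1 and 103 CPM at E16.5 and 35.7, 19.8 and 77.7 CPM at P0, both overlapping with E13.5.

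Sostdc1 rose 3.10-fold from E13.5 to E16.5 (log2 fold change 1.63 ± 0.567, adjusted p = 0.0310, edgeR) and 2.99-fold from E14.5 to E16.5 (1.58 ± 0.566, adjusted p = 0.0369). The other 8 pairs did not pass, and neither did the test across the stages (adjusted p = 0.0840). Both calls depended on single pools: without E16.5 replicate 3 the rises had adjusted p of 0.116 and 0.137, and without E16.5 replicate 2, 0.0732 and 0.0844. With E14.5 replicates 1 and 3 both left out they were 0.0511 and 0.216. The rise from E13.5 was also lost without E13.5 replicate 1 (0.0808) or replicate 2 (0.113), and that from E14.5 without E14.5 replicate 1 (0.101), replicate 2 (0.103) or replicate 3 (0.0655). In the other direction, leaving out E16.5 replicate 1, the low pool, brought the test across the stages to an adjusted p of 0.0181. In the order of stage levels, E13.5, E14.5, E15.5, P0 and E16.5, no neighbours differed past the threshold.

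Pools rich in Sostdc1 were also rich in transcripts of the mouth lining at E13.5, E15.5 and E16.5, but the order differed at E14.5 and P0. The summed level of 6 oral epithelium genes (Krt5, Krt14, Krt15, Trp63, Cdh1 and Epcam) at E15.5 was 457, 1090 and 1717 CPM in replicates 1 to 3, the same order as Sostdc1, and at E16.5 1020, 1239 and 2262 CPM, again the same order. At P0 it was 972, 2030 and 3122 CPM, and replicate 2 had the lowest Sostdc1 of that stage. Krt5, a keratin of basal epithelium, reached 1217 CPM in E16.5 replicate 3 and 1580 CPM in P0 replicate 3, the pools with the most Sostdc1 of each stage. Enamel and dentine genes were low throughout, with 8 of them summing to 0.85 to 22.0 CPM, and that sum was also highest in these pools, 15.5 and 22.0 CPM. The part of tissue makeup in the Sostdc1 differences was not tested.

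**Figure D4:**
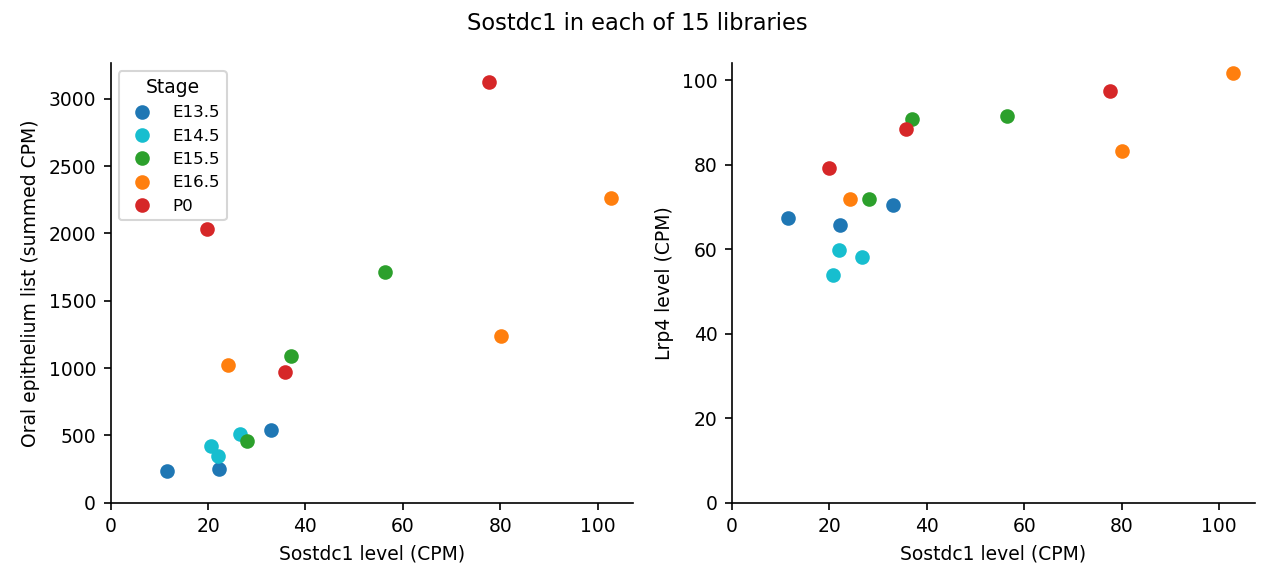
Sostdc1 level in CPM (horizontal axes) against the summed CPM of 6 oral epithelium genes (left) and against Lrp4 in CPM (right), with 1 point per library coloured by stage. P0 replicate 2 lies apart on the left, with 19.8 CPM of Sostdc1 and a summed level of 2030 CPM.

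Among the members, Sostdc1 and Lrp4 were the most alike over the 15 libraries, with Pearson's r of 0.75 and Spearman's rho of 0.78 on log2 CPM, and r was 0.79 for deviations from the stage means. The other 9 pairs had r between -0.45 and 0.57. These are descriptions over libraries that share stages, and no test was made.

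Lrp4 was higher from E15.5 on than at E14.5, by a modest factor. Its level was 65.7, 67.3 and 70.6 CPM at E13.5 and 59.8, 53.9 and 58.1 CPM at E14.5. It was 72.0, 90.8 and 91.5 CPM at E15.5. E16.5 libraries had 72.0, 83.4 and 102 CPM and P0 libraries 88.4, 79.2 and 97.4 CPM. All 9 libraries from E15.5 on lay above all 6 earlier ones.

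Lrp4 changed across the stages (adjusted p = 0.00634, edgeR) and in 4 of 10 pairs. It rose 1.48-fold from E14.5 to E15.5 (log2 fold change 0.57 ± 0.137, adjusted p = 0.0114), and E16.5 and P0 were 1.50-fold and 1.54-fold above E14.5 (adjusted p = 0.00477 and 0.00208). P0 was 1.30-fold above E13.5 (adjusted p = 0.0310), while E15.5 and E16.5, 1.25-fold and 1.26-fold above E13.5, missed the threshold (0.106 and 0.0582). The step from E14.5 to E15.5 lost its call without E14.5 replicate 2, E15.5 replicate 2 or E15.5 replicate 3, at adjusted p of 0.0515 to 0.0529. P0 against E13.5 lost it without any one E13.5 library or without P0 replicate 3, at 0.0551 to 0.0955, and also without a filter on low counts (0.0689). The comparisons of E14.5 with E16.5 and P0 kept their calls in each fit without 1 library. E16.5 against E13.5, which missed in the main fit, passed in 4 of 9 other settings, DESeq2 among them, at adjusted p of 0.0335 to 0.0486. With E14.5 replicates 1 and 3 both left out, the adjusted p was 0.111 for E15.5 and 0.0527 for E16.5 against E14.5. In the order E14.5, E13.5, E15.5, E16.5 and P0, no neighbours differed past the threshold.

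Most partners of Lrp4 at the neuromuscular synapse rose, while its ligand, the most abundant of them, fell. From E13.5 to P0, 8 of 9 genes of the agrin and MuSK pathway rose and 1 fell. In this comparison 56.6% of all tested genes passed in either direction, 26.8% as lower. The median log2 fold change of the 9 was 2.43 against 0.03 over all tested genes. The gene that fell was Agrn, from 767 ± 91.5 to 375 ± 66.8 CPM (2.04-fold, adjusted p = 0.000681). Chrng and Chrna1, subunits of the muscle acetylcholine receptor, rose 4.76-fold and 6.01-fold, and Musk, the kinase that Lrp4 activates, named after its values were seen, rose 5.30-fold (adjusted p = 0.0144). Of the 7 skeletal muscle markers, 5 rose and none fell in the same comparison. At E15.5, E16.5 and P0, replicate 3 had the lowest summed level of these markers, 1719, 11660 and 5496 CPM. The same pools had the most Lrp4 of their stage, 91.5, 102 and 97.4 CPM. At E13.5 replicate 3 had the most of both, and at E14.5 replicate 3 had the most muscle transcripts and replicate 1 the most Lrp4. The part of muscle in these differences was not tested.

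Lrp5 and Lrp6 stood at similar levels per length early on, and the ratio between them was higher in every later library. Lrp5 stood at 141, 89.1 and 135 CPM at E13.5, at 76.5, 113 and 116 CPM at E14.5 and at 142, 155 and 143 CPM at E15.5. It stood at 142, 129 and 147 CPM at E16.5 and at 140, 128 and 103 CPM at P0. The E15.5 libraries all lay above those of E13.5 and E14.5, while P0 overlapped with both.

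No pair of stages passed for Lrp5, nor did the test across the stages (adjusted p = 0.160, edgeR). The nearest was E15.5 against E14.5, 1.44-fold higher with an adjusted p of 0.0581. That comparison passed in DESeq2 (0.0323), with upper-quartile scaling (0.0332), with genes of at least 1 CPM (0.0347) and in libraries thinned to the smallest total (0.0395). E16.5 against E14.5, 1.37-fold higher (adjusted p = 0.0679), passed under the same alternatives (0.0445, 0.0413, 0.0370 and 0.0453). Between the lowest and the highest stage mean, 102 ± 22.0 CPM at E14.5 and 147 ± 7.16 at E15.5, the factor was 1.44.

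Lrp6 was lower late in development. It stood at 206, 149 and 173 CPM at E13.5, at 129, 145 and 153 CPM at E14.5 and at 139, 149 and 128 CPM at E15.5. It stood at 87.6, 110 and 129 CPM at E16.5, all below E13.5, and at 67.4, 152 and 85.9 CPM at P0. P0 replicate 2, with 152 CPM, stood apart from the other P0 libraries, and it also had the highest mitochondrial share of any library, 2.83% of counts, and 519 CPM of choroid plexus genes. Their part in its Lrp6 level was not tested.

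Lrp6 fell 1.61-fold from E13.5 to E16.5 (log2 fold change -0.69 ± 0.249, adjusted p = 0.0368, edgeR) and 1.73-fold from E13.5 to P0 (-0.79 ± 0.250, adjusted p = 0.0170). The test across the stages missed the threshold (adjusted p = 0.0728) and passed without P0 replicate 2 (0.00330), where P0 also fell below E14.5 (log2 fold change -0.85, adjusted p = 0.00388) and E15.5 (-0.88, 0.0145). The fall to P0 was lost without E13.5 replicate 1 (0.0651), P0 replicate 1 (0.0896) or P0 replicate 3 (0.0820), and with only the 6 libraries of the comparison (0.0842). The fall to E16.5 was lost without E13.5 replicate 1 (0.127) or replicate 3 (0.0637), E16.5 replicate 1 (0.173) or replicate 2 (0.0745), or P0 replicate 3 (0.0530). It was also lost without a filter on low counts (0.0647), with genes of at least 1 CPM (0.0518), in thinned libraries (0.0520) and with E14.5 replicates 1 and 3 both left out (0.0765). In the order P0, E16.5, E15.5, E14.5 and E13.5, no neighbours differed past the threshold.

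The ratio of Lrp5 to Lrp6 compares both co-receptors within 1 library, so that scaling between libraries drops out. Per length it was 0.963, 0.841 and 1.09 at E13.5, 0.831, 1.09 and 1.07 at E14.5 and 1.43, 1.46 and 1.57 at E15.5. It was 2.27, 1.64 and 1.60 at E16.5 and 2.92, 1.19 and 1.69 at P0. All 9 later libraries lay above all 6 earlier ones, and P0 replicate 2 was the lowest of the 9.

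From E13.5 to P0 the log2 ratio of Lrp5 to Lrp6 rose by 0.91, from -0.06 ± 0.188 to 0.85 ± 0.655 (SD, n = 3), in a two-sided exact permutation test with p = 0.1, the smallest that 3 libraries against 3 allow. Without 1 library in turn, the difference was 0.56 to 1.21. The summed level of both co-receptors varied less, with 25.3 ± 4.85 CPM per kilobase in E13.5 libraries and 20.2 ± 3.80 in P0 libraries, and stage means between these in all other stages. Lrp4 gained on Lrp6 as well, with a ratio per length of 0.512 ± 0.0879 (E13.5), 1.02 ± 0.0429 (E16.5) and 1.29 ± 0.541 (P0). At P0 the 3 libraries gave 1.71, 0.677 and 1.48.

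**Figure D5:**
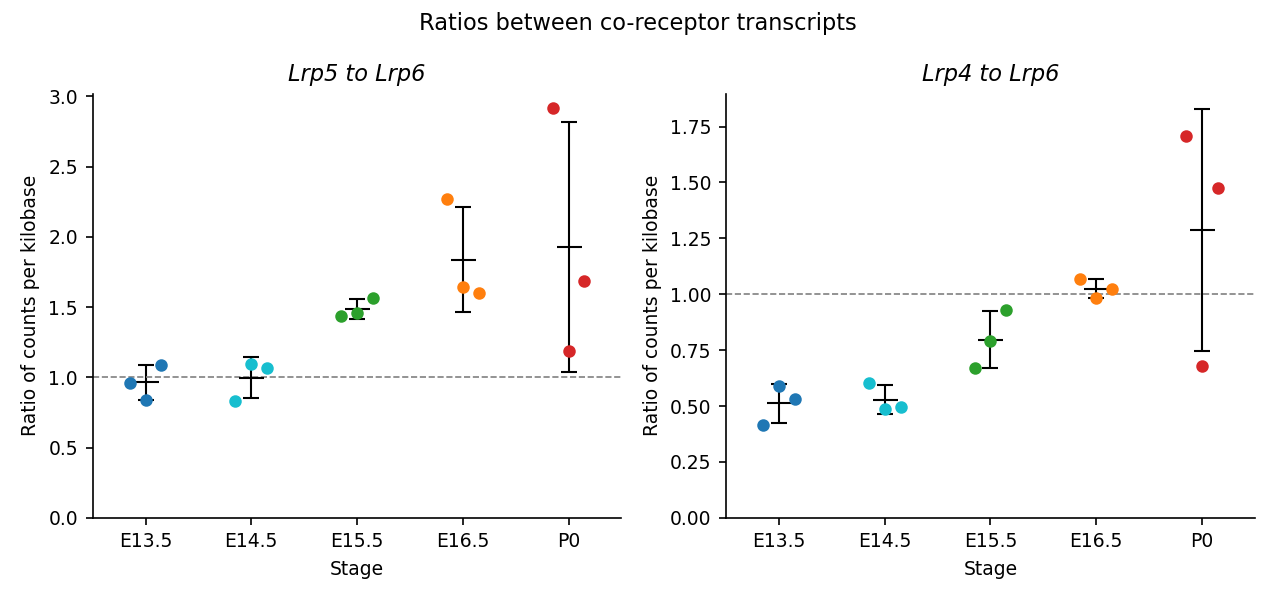
Ratios of counts per kilobase (vertical axes, from 0) of Lrp5 to Lrp6 (left) and Lrp4 to Lrp6 (right) at 5 stages, with 1 point per library, the mean ± SD of 3 and a dashed line at 1. The Lrp5 to Lrp6 ratio is 0.831 to 1.09 in the 6 libraries of E13.5 and E14.5 and 1.19 to 2.92 in the 9 later ones.

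Read against all tested genes, the members passed about as often as other genes in most comparisons. Across the 5 stages 2 of 5 passed, Sost and Lrp4, where 59.1% of all genes did. From E14.5 to E15.5 2 of 5 passed, both higher (26.1% of all genes passed), and from E13.5 to E15.5 1 of 5 (22.9%). From E13.5 to E16.5 and from E14.5 to E16.5 3 of 5 passed each time (48.2% and 46.2%), and from E13.5 to P0 also 3 of 5 (56.6%). Of the 5, Lrp4 alone passed between E14.5 and P0 (56.7%), and none passed in E14.5 against E13.5 (0.00903%), E16.5 against E15.5 (1.41%) or P0 against E15.5 (22.9%). Between E16.5 and P0, where 0.352% of all genes passed, Sost was the member that did. The E15.5 libraries of Sost, Sostdc1, Lrp4 and Lrp5 each lay wholly above those of E14.5, a separation that 24.0% of all tested genes showed in this direction. Comparisons that use the same stage share its libraries and are not independent.

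Other secreted Wnt antagonists split into genes that rose and genes that fell. From E13.5 to P0, 5 of 11 rose and 4 fell, where 56.6% of all tested genes passed and 26.8% fell. The median log2 fold change of the 11 was 1.19 against 0.03 over all tested genes. Sfrp2 and Sfrp1, soluble Frizzled-like decoys and the most abundant of the 11, fell 2.82-fold (406 ± 113 to 144 ± 50.7 CPM) and 1.95-fold (281 ± 55.0 to 144 ± 49.9 CPM). Dkk3, a Dickkopf relative, rose 2.36-fold (57.7 ± 8.96 to 136 ± 29.5 CPM). From E14.5 to E15.5, the step at which Sost first rose, 4 of 11 rose and none fell (26.1% of all tested genes passed). Among 4 DAN family relatives of Sost and Sostdc1, which are mostly antagonists of bone morphogenetic proteins, Nbl1 rose 1.69-fold from E13.5 to P0 (83.4 ± 26.2 to 141 ± 30.2 CPM, adjusted p = 0.0422) and none fell, and Grem1 and Dand5 stood at 8.19 ± 6.34 and 7.31 ± 1.34 CPM at P0.

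At the membrane, the co-receptors' partners changed one by one. Of 9, 1 rose and 3 fell from E13.5 to P0, where 56.6% of all tested genes passed and 26.8% fell. The median log2 fold change of the 9 was -0.10. Kremen1, which together with Dickkopf proteins removes Lrp6 from the surface, rose 3.30-fold, from 68.6 ± 13.1 to 226 ± 34.8 CPM (adjusted p = 8.27e-06). Apcdd1, a membrane inhibitor and Wnt target, fell 2.57-fold, and Mesd, the chaperone that Lrp5 and Lrp6 need to fold, fell 1.35-fold (74.0 ± 9.62 to 54.6 ± 9.72 CPM, adjusted p = 0.0266). The third that fell was Kremen2, named after its values were seen, from 12.9 ± 6.44 to 2.57 ± 1.40 CPM.

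Genes of the complex that acts on the Lrp5 and Lrp6 tails mostly fell. From E13.5 to P0, 10 of 14 fell and none rose, with a median log2 fold change of -0.64, while 26.8% of all tested genes fell. Ctnnb1, beta-catenin itself, fell 1.52-fold (1483 ± 33.9 to 976 ± 101 CPM) and Csnk1a1, a casein kinase, 1.37-fold, while Csnk1g2, a casein kinase of the membrane, stood at 191 ± 19.7 and 203 ± 18.7 CPM. From E14.5 to E15.5, 5 of 14 fell and none rose, where 26.1% of all tested genes passed in either direction.

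Of 12 canonical Wnt targets, 2 rose and 7 fell from E13.5 to P0, where 56.6% of all tested genes passed and 26.8% fell. The median log2 fold change of the 12 was -0.94. Axin2, the feedback inhibitor often read as a sign of Wnt activity, fell 2.00-fold (66.3 ± 14.1 to 33.2 ± 10.6 CPM, adjusted p = 0.00491), and Ccnd1, a cyclin, fell 1.92-fold. The 2 that rose, named after their values were seen, were Tcf7, a transcription factor of the pathway (14.4 ± 4.62 to 46.6 ± 20.6 CPM), and Notum, a secreted enzyme that inactivates Wnt (2.89 ± 1.39 to 14.8 ± 6.02 CPM). Of the genes for bone morphogenetic proteins, which Sostdc1 also binds, and for their receptors, 1 of 9 rose and 2 fell between these stages. The 2 that fell were the receptors Bmpr1a (1.71-fold) and Bmpr2 (1.68-fold), while Bmp7 stood at 66.5 ± 19.6 and 42.1 ± 14.5 CPM.

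Among 11 other genes of the low-density lipoprotein receptor family, 3 rose and 5 fell from E13.5 to P0. Their median log2 fold change was -0.55, and 56.6% of all tested genes passed, 26.8% as lower. Lrp1, the large scavenger receptor, fell 1.47-fold (619 ± 86.7 to 422 ± 79.4 CPM) and Lrp3 fell 2.11-fold, while Lrp10 rose 2.47-fold (48.4 ± 5.51 to 119 ± 25.2 CPM, adjusted p = 7.50e-05). Between E16.5 and P0, where 0.352% of all tested genes passed, none of the genes in these 7 lists passed in edgeR.

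The genes whose pattern over the 15 libraries was most like each member's were found by Pearson's r of log2 CPM among 16518 genes. For Sost they were Ufsp2 (r = 0.92), Abcg3 (0.91), Rrad (0.90), Eef2k (0.88) and Mamstr (0.88). Rrad, a small GTP-binding protein, had the same order of peak and decline, with 16.03 ± 7.87 CPM (E15.5), 37.1 ± 8.08 CPM (E16.5) and 14.2 ± 5.39 CPM (P0). For Sostdc1 they were Aox4 (0.93), Sp6 (0.92), Dlx3 (0.91), Wnt10b (0.90) and Wnk4 (0.90). Sp6 and Dlx3 are transcription factors of epithelial appendages and Wnt10b is a Wnt ligand, and the E16.5 libraries of Sp6 ran from 2.22 to 157 CPM.

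For Lrp4 the most alike were Slc4a11 (0.94), Nod2 (0.94), Pqlc3 (0.92), Nlrp10 (0.92) and Ano1 (0.92). For Lrp5 they were Arhgap31 (0.95), Tln1 (0.93), Cnnm4 (0.92), Itpripl2 (0.90) and Itpkb (0.89), and for Lrp6 Trpm7 (0.96), Scaf11 (0.95), Pkn2 (0.95), Mbnl3 (0.95) and Wwc2 (0.95). None of these 25 genes is a member. Of the 5 most like each gene, Spearman's rho kept 2 for Sost, 2 for Sostdc1, 4 for Lrp4, 1 for Lrp5 and 1 for Lrp6. On deviations from the stage means, r kept 0 for Sost, 2 for Sostdc1, 0 for Lrp4, 1 for Lrp5 and 1 for Lrp6, and the libraries share stage, depth and scaling.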

How the data were processed

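The authors deposited 1 table of raw counts per gene, made with featureCounts 2.0.1 for read pairs on the reverse strand with GENCODE M18, per the file headers. The submitters' processing notes list cutadapt 3.4, HISAT2 2.2.1, Bowtie2, SAMtools 1.12 and the build mm10, with no role given. Symbols came from GENCODE M21 (54079 matched).

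Genes were kept by filterByExpr by stage (minimum count 10), scaled by TMM and fitted over all 15 libraries in edgeR 4.0.16 (R 4.3.3), with a coefficient for each of the stages. All 10 pairs of stages and the stages together were tested, with a threshold of 0.05 on the adjusted p. An SE is the fold change divided by the root of its F value. Log2 CPM used a prior count of 2. Genes of a list are named as the up to 3 of highest mean CPM, or as stated.

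The members and lists were chosen with earlier results of these data known. Libraries are pools that the labels give as separate samples, with nothing said of separate litters, so p-values measure the spread between these pools. Libraries of 1 stage differed by far more than counting error (chi-square per degree of freedom 29.5 to 225). Alternatives were DESeq2 1.42.0, other scalings and filters, only the 6 libraries of a comparison, the replicate block, thinning, and leaving libraries out. E14.5 replicates 1 and 3 were left out together because earlier results of these data showed choroid plexus transcripts in both. Genes not reported here were left out of the lists and their sums.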

Additional observations from a re-analysis of the deposited data

How the results depend on the processing

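Of 50 comparisons of a member between stages, the 14 that passed kept their direction under all 15 fits that left out 1 library and 9 other settings. Another 8, none of which passed and all with a log2 fold change within 0.13 of 0, changed sign under at least 1 alternative. With upper-quartile scaling Sostdc1 in E14.5 against E13.5 became -0.026, Lrp4 in E16.5 against E15.5 -0.017 and Lrp6 in E15.5 against E14.5 0.10. With both E14.5 replicates 1 and 3 left out, Sostdc1 in E14.5 against E13.5 became -0.12. Without a filter on low counts Lrp4 in P0 against E16.5 became -0.000295 and Lrp6 in E15.5 against E14.5 0.019, which was 0.055 with a mean of at least 1 CPM. In thinned libraries Lrp4 in E16.5 against E15.5 became -0.018 and Lrp6 in E15.5 against E14.5 0.043.

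Leave-one-out fits moved Sostdc1 in E14.5 against E13.5 between -0.25 and 0.46 and in P0 against E15.5 between -0.55 and 0.47. They moved Lrp4 between -0.13 and 0.11 in E16.5 against E15.5, between -0.050 and 0.11 in P0 against E15.5 and between -0.071 and 0.18 in P0 against E16.5. They moved Lrp5 in P0 against E13.5 between -0.16 and 0.17. They moved Lrp6 between -0.11 and 0.029 in E15.5 against E14.5 and between -0.52 and 0.13 in P0 against E16.5.

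Upper-quartile scaling moved the median of all genes by over 0.1 on the log2 scale, from 0.03 to 0.16 in E15.5 against E14.5, from -0.01 to 0.09 in E16.5 against E14.5 and from 0.02 to 0.16 in P0 against E14.5. Leaving out E14.5 replicates 1 and 3 moved it to 0.09 and 0.14 in the latter comparisons. The number of members that passed moved as follows. With both E14.5 libraries left out it was 1 in E16.5 against E13.5, 0 in E15.5 against E14.5, 1 in E16.5 against E14.5 and 0 in P0 against E16.5. With only the 6 libraries of the comparison it was 1 in P0 against E13.5 and 0 in P0 against E16.5. In DESeq2 it was 1 in E16.5 against E15.5 and 1 in P0 against E15.5, and thinning also gave 1 in P0 against E15.5. In P0 against E16.5 it was 0 with DESeq2's size factors, with upper-quartile scaling, without a filter and with the replicate block. Over leave-one-out fits the number was 1 to 4 in E16.5 against E13.5, 0 to 3 in P0 against E13.5, 1 to 3 in E15.5 against E14.5, 2 to 4 in E16.5 against E14.5, 1 to 2 in P0 against E14.5, 0 to 1 in P0 against E15.5 and in P0 against E16.5, and 2 to 4 across the stages.

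The main fit did not pair libraries by replicate number, and the values do not settle whether the numbers mark pairs. The deviations of 30 same-numbered pairs correlated at -0.30 to 0.55, with a mean of 0.059 against -0.032 for differently numbered pairs. Of the 30, 9 were over 0.1, and 7 of 15 libraries were closest to their own number. In E14.5 against E13.5, 135 genes passed with the block and 2 without it. With the replicate number as a block, P0 against E16.5 had 0 members past the threshold (Sost, adjusted p = 0.0866) and Sostdc1 passed across the stages (0.0362). The fewest counts behind a member's value were the 14 of Sost in P0 replicate 3, and the causes of these shifts were not tested.

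Comparisons that had missed the threshold passed in edgeR without 1 library as follows, with adjusted p in brackets: Sost in P0 against E14.5 without E13.5 replicate 3 (0.0384) or P0 replicate 3 (0.0331) and in P0 against E15.5 without E13.5 replicate 3 (0.0229). Lrp4 in E16.5 against E13.5 passed without E16.5 replicate 1 (0.0187) or any one P0 library (0.0393 to 0.0472). Lrp5 passed in E15.5 against E14.5 without E13.5 replicate 2 (0.0353), P0 replicate 1 (0.0489) or P0 replicate 3 (0.0416), and in E16.5 against E14.5 without E13.5 replicate 2 (0.0404) or P0 replicate 3 (0.0441). Sostdc1 passed across the stages without P0 replicate 2 (0.0457) or replicate 3 (0.0399).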
